A study of Mus musculus with 18 samples.

Results

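The genes examined here are 10 members of the Notch pathway, the ligands Dll1, Jag1 and Jag2, the receptors Notch1, Notch2 and Notch3, the targets Hes1, Hey1 and Heyl, and the inhibitor Numb, chosen by symbol among the 19153 genes listed in each deposited table. All 10 were listed and all 10 passed the filter on low values. RNA was sequenced from immortalized mouse myoblasts that lack p53, as 3 libraries in each of 6 groups. WT cells carried the empty Cas9 vector, and LAP2α knockout (KO) cells were a pool of CRISPR-edited, sorted cells and not a clone, so every group shared the p53 loss and a Cas9 vector. Each genotype was sampled while proliferating below full density in 20% serum (Prol), on day 0 when confluent in 20% serum (D0), and on day 2 after 48 h of differentiation in 5% serum (D2), on collagen-coated plates. The labels do not say that the replicates were separate cultures, so p-values measure the spread between these libraries, which may be technical.

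Notch receptors are cut after they bind a Delta or Jagged ligand on a neighbouring cell, and the released intracellular domain moves to the nucleus, where it joins RBPJ and switches on genes of the Hes and Hey families. These encode repressors of transcription. In muscle, the pathway is known for keeping satellite cells and myoblasts undifferentiated and for opposing MyoD, while differentiating myogenic cells present Dll1 to their neighbours. Numb counteracts the pathway by promoting the removal of Notch receptors from the cell surface.

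Library totals ran from 26437823 to 41619016 counts, with a median of 32939620, and 3 counts corresponded to between 0.0759 and 0.138 CPM. The unit is CPM, in which the authors divided by a scaled total after adding 0.5 counts to every gene. Among 8 myoblast and early muscle markers, Pax7 was not listed, Myf5 was at 20.5 to 27.4 CPM in the WT Prol libraries and Myod1 at 0.736 to 4.61 CPM. The summed level of the 7 listed markers was 32.5 to 40.3 CPM in the 6 Prol libraries, 1792 to 3492 CPM in WT D2 and 1112 to 1307 CPM in KO D2. By the test given below, 6 of the 7 rose from Prol to D2 in each genotype. Over all genes, 16.6% rose in WT and 17.1% in KO. In each genotype 1 of the 7 had a log2 fold change below 0, and 1 was lower at D2 than at D0 in WT. The summed level of 4 proliferation markers fell from 1258 to 1706 CPM in the Prol libraries to 157 to 290.4 CPM in the D2 libraries.

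Promoter windows, the 250 bases before a RefSeq start on GRCm38.p6, were found for 7 of the 10 members, 10 windows in all. The targets Hes1, Hey1 and Heyl had none. Those of Dll1, which had the largest change of the members, and of Notch3, the most abundant per length of the receptors that rose, are shown. Of the 2 Dll1 windows, the one before the farther upstream start is printed, and the other held 1 match. Capitals mark the E-box CANNTG, the sequence class that MyoD-family factors bind. The Dll1 window, at chr17:15376933-15377182 on the minus strand, holds 3 of them, and the Notch3 window, at chr17:32166891-32167140 on the minus strand, holds 0.
Dll1: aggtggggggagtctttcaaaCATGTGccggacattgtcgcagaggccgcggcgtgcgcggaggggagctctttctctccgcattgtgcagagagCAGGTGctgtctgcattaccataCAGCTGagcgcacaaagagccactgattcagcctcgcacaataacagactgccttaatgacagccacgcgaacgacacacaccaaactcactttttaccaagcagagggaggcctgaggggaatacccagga
Notch3: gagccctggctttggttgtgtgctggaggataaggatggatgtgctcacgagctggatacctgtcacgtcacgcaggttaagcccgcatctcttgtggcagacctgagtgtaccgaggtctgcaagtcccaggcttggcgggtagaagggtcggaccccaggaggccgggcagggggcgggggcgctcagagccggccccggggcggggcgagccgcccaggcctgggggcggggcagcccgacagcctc
The 3 matches in the Dll1 window include CAGCTG and CAGGTG, the reverse complement of CACCTG, each of which is also a CANNTG. On both strands, 5 of the 10 member windows and 66.2% of all 32851 windows held CANNTG, 13.0% of all held CAGCTG and 17.2% held CACCTG. Those 5 include Numb windows at chr12:83876813-83877062 and chr12:83842359-83842608, which lie inside the Numb gene, while the Numb window outside it held 0. The core RBPJ motif TGGGAA was in 0 of the 10 member windows and in 21.6% of all windows. As the targets Hes1, Hey1 and Heyl had no window, this count says nothing about them. These are matches of letters in short windows and were not tested as binding sites.

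The members differed widely in level. Per kilobase of exon, Notch2 was the most abundant member in every group, at 11.4 ± 1.53 CPM per kb in WT Prol and 17.8 ± 4.498 in WT D2 (SD, n = 3). In WT Prol it was followed by Hes1 at 4.61 ± 0.613, Numb at 4.11 ± 0.639, Jag1 at 3.74 ± 0.727 and Notch3 at 3.11 ± 0.630 CPM per kb, and within these 4 the libraries of neighbouring genes overlapped. Notch1 at 0.602 ± 0.0771, Hey1 at 0.291 ± 0.0814 and Jag2 at 0.143 ± 0.0251 CPM per kb came next, each below the libraries of the one before it. Dll1 and Heyl were lowest, at 0.0182 ± 0.00903 and 0.0110 ± 0.0139 CPM per kb, and their libraries overlapped. In WT D2, Notch3 at 11.3 ± 1.12 CPM per kb stood second, and its libraries overlapped with those of Hes1 at 10.3 ± 4.49. Dll1 stood sixth at 4.45 ± 0.293 CPM per kb, above all libraries of Notch1, at 2.36 ± 1.09, and overlapping with Numb, at 4.94 ± 2.31.

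**Figure D1:**
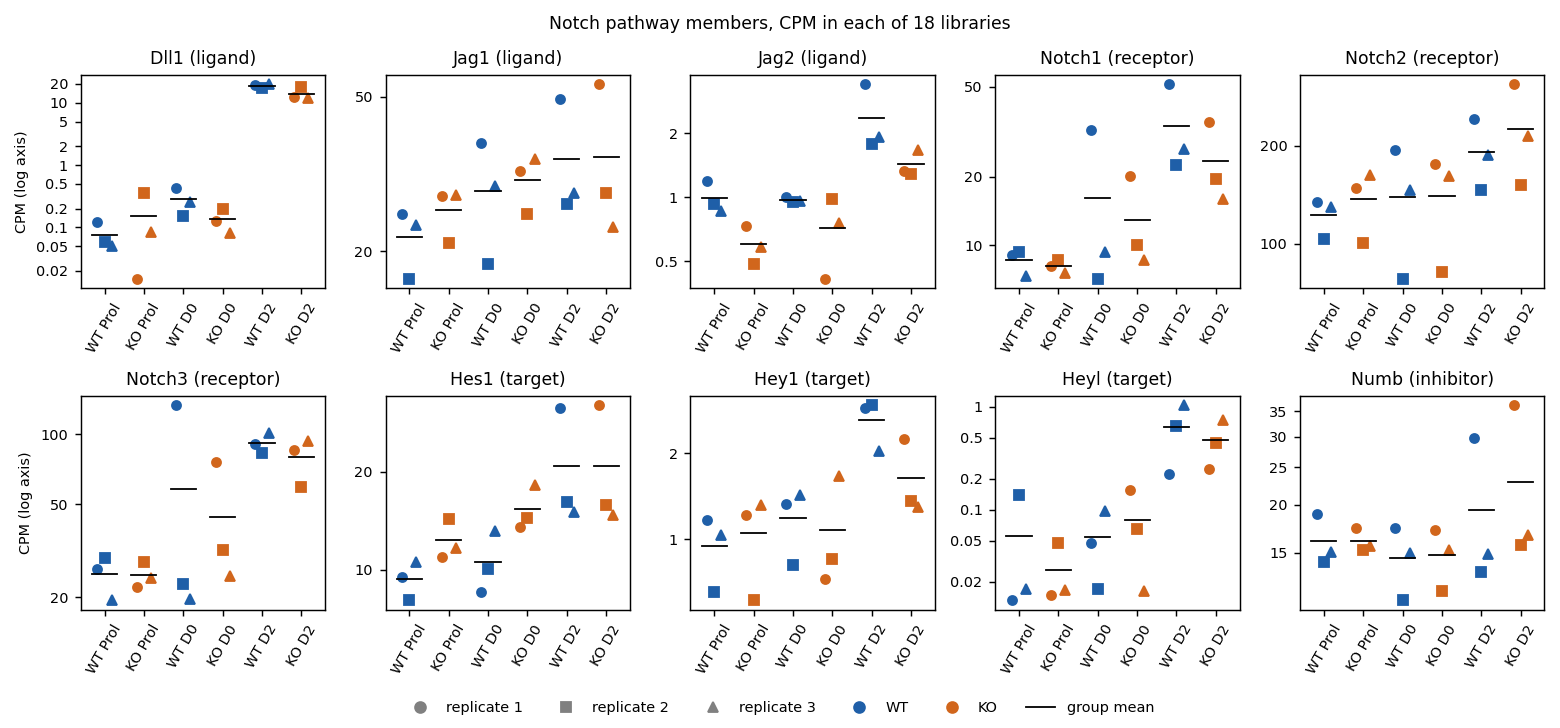
CPM (log axis) of the 10 members in each of the 18 libraries, by group on the x axis; symbols stand for the replicate number, colours for the genotype and the black bar for the group mean. Dll1 lies between 12.1 and 19.8 CPM in the 6 D2 libraries and below 0.5 CPM in all others, while for Hes1, Jag1 and Numb the replicate 1 libraries of D2 lie above the other D2 libraries.

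Differentiation was examined first, as D2 against Prol within each genotype. In WT cells, 7 of the 10 members rose and 0 fell (limma, Benjamini-Hochberg adjusted p under 0.05 over 17672 genes), where 16.6% of all genes tested rose and 30.7% changed in either direction. These were Dll1, Jag2, Notch1, Notch3, Hes1, Hey1 and Heyl. In KO cells, 5 rose and 0 fell, namely Dll1, Jag2, Notch1, Notch3 and Heyl, where 17.1% of all genes rose and 32.3% changed. Dll1 and Heyl passed the filter on low values only through D2, where they were high. The filter thus favoured a rise in them, and their calls are not support for a rise of the set. Of the other 8 members, 5 rose in WT and 3 in KO. The median log2 fold change of the members was 1.35 in WT and 0.97 in KO, beside -0.01 and 0.02 over all genes tested. The D2 libraries lay above all Prol libraries for 9 members in WT, all but Numb, and for 6 in KO, where 23% and 25.1% of all genes did so. These medians and counts are over all 10 members and include Dll1 and Heyl, so part of their distance from all genes comes from the filter. In bulk RNA, a change in the number of cells of a type cannot be told apart from a change in RNA per cell.

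Among the ligands, Dll1 (chr17:15367354-15376872, minus strand, GRCm38) showed the largest change of all members. It was at 0.120, 0.0593 and 0.0506 CPM in the WT Prol libraries, from 4, 1 and 1 expected counts, and at 19.1, 17.4 and 19.8 CPM in WT D2, from 640.0, 636 and 704 expected counts. In KO it was at 0.0150, 0.362 and 0.0832 CPM in Prol, from 0, 11 and 2 expected counts, and at 12.2, 17.7 and 12.1 CPM in D2. The D2 libraries of each genotype were thus all far above its Prol libraries, and the WT and KO D2 libraries overlapped. The ratio of the summed counts, scaled to the library totals, was 288 in WT (95% exact interval for counting error 132 to 786) and 105 in KO (61.4 to 198). The fitted log2 fold changes were 8.04 ± 0.80 (SE; limma adjusted p = 2.54e-06) and 7.49 ± 0.80 (adjusted p = 4.87e-06). In KO, 11 of the 13 Prol counts came from replicate 2, and the value was 6.31 without Prol replicate 1 and 8.61 without Prol replicate 2. The fitted values depend on the 0.5 counts added to the near-empty Prol libraries and were 4.20 and 3.70 on the log2(CPM + 1) scale.

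Jag2 (chr12:112907819-112929776, minus strand), a Jagged-class ligand, was at 1.19, 0.929 and 0.861 CPM in WT Prol and at 3.41, 1.79 and 1.93 CPM in WT D2. Jag2 in KO was at 0.734, 0.487 and 0.583 CPM in Prol and at 1.34, 1.29 and 1.66 CPM in D2. The D2 libraries were above the Prol libraries in both genotypes, and WT replicate 1 was the highest D2 library. The rise was 2.31-fold in WT (log2 1.21 ± 0.35, limma adjusted p = 0.0165) and 2.40-fold in KO (log2 1.26 ± 0.35, adjusted p = 0.0123). The call was lost in WT without Prol replicate 3 (adjusted p = 0.066) or D2 replicate 1 (0.0725), and in KO without Prol replicate 2 (0.0515).

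Jag1 (chr2:137081456-137116644, minus strand), the more abundant Jagged ligand per length, did not pass the test in either genotype. It was at 25.0, 17.0 and 23.4 CPM in WT Prol and at 49.2, 26.5 and 28.2 CPM in WT D2, and at 27.7, 21.0 and 27.9 CPM in KO Prol and 53.8, 28.2 and 23.1 CPM in KO D2. The replicate 1 library was the highest of the D2 libraries in both genotypes. The log2 fold change was 0.63 in WT (95% confidence interval -0.07 to 1.33, adjusted p = 0.170) and 0.37 in KO (-0.33 to 1.07, adjusted p = 0.439).

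Among the receptors, Notch1 (chr2:26457903-26516663, minus strand) was at 9.03, 9.35 and 7.31 CPM in WT Prol and at 51.3, 22.7 and 26.7 CPM in WT D2. The KO libraries were at 8.11, 8.603 and 7.54 CPM in Prol and at 35.0, 19.5 and 15.96 CPM in D2. All D2 libraries exceeded all Prol libraries, and replicate 1 was again the highest of the D2 libraries in each genotype. The rise was 3.69-fold in WT (log2 1.88 ± 0.48, adjusted p = 0.00726) and 2.75-fold in KO (log2 1.46 ± 0.48, adjusted p = 0.0291). In WT the call held without each library in turn, with adjusted p of 0.00948 to 0.0339. In KO it was lost without each of the libraries except D2 replicate 3, with adjusted p of 0.0541 to 0.114 in those 5 fits.

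Notch3 (chr17:32120820-32166852, minus strand), a receptor known from vascular smooth muscle and pericytes as well as from muscle satellite cells, was at 26.4, 29.4 and 19.5 CPM in WT Prol and at 90.6, 82.9 and 101 CPM in WT D2. Its KO levels were 22.2, 28.3 and 24.3 CPM in Prol and 85.8, 59.2 and 93.6 CPM in D2. All D2 libraries were above all Prol libraries, and in each genotype replicate 2 was the lowest of the D2 libraries. The rise was 3.68-fold in WT (log2 1.88 ± 0.54, adjusted p = 0.0151) and 3.15-fold in KO (log2 1.65 ± 0.54, adjusted p = 0.0286). The call was lost in WT without Prol replicate 3 (adjusted p = 0.0636). In KO it was lost without each of the libraries except D2 replicate 2, with adjusted p of 0.0503 to 0.0865 in those 5 fits.

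Marker lists of other cell types were also examined, and some rose at D2 while others did not. The summed level of the 5 listed smooth muscle and pericyte markers, a list that holds Notch3 itself and the abundant Acta2, was 264.6 to 543.3 CPM in WT Prol and 1011 to 1856 CPM in WT D2, and in KO it went from 362.1 to 447.3 CPM in Prol to 775.6 to 1403 CPM in D2. In WT, 3 of the 5 rose and 0 fell. Over all genes tested, 16.6% rose in WT and 17.1% in KO. The counts by marker list are of few genes and were not tested against these shares. Myh11, the defining smooth muscle marker, was not listed. The summed level of the 5 fibroblast and fibro-adipogenic markers went from 37.6 to 92.4 CPM in WT Prol to 257 to 312.5 CPM in WT D2 and from 36.7 to 71.1 CPM in KO Prol to 248 to 457 CPM in KO D2, with 3 of 5 higher in each genotype. The 4 listed endothelial markers summed to 1.19 to 2.74 CPM in every library, with 0 of 4 higher in WT D2 and 2 of 4 in KO D2, and Cdh5 and Emcn were not listed. The 2 listed immune markers summed to at most 8.004 CPM, with Ptprc not listed and 1 of the 2 lower at D2 in each genotype, and the 2 listed Schwann and neural markers to at most 3.71 CPM, with Sox10 not listed. The part of other cell types in the members' changes was not tested.

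Notch2 (chr3:98013527-98150361, plus strand), which also shares exon sequence with the listed transcript Gm42820 on the same strand, was at 134, 104 and 130 CPM in WT Prol and at 242, 146 and 188 CPM in WT D2. Notch2 in KO was at 148, 100.1 and 162 CPM in Prol and at 309, 152 and 214 CPM in D2. The WT groups did not overlap and the KO groups did. The log2 fold change was 0.63 in WT (95% confidence interval -0.15 to 1.40, adjusted p = 0.219) and 0.69 in KO (-0.09 to 1.46, adjusted p = 0.170). In KO, where the replicate numbers paired the libraries, a blocked fit, with replicate as a block, called Notch2 higher (log2 0.69, adjusted p = 0.00289), which brought the KO members called to 6. That count is given without the share of all genes called by the blocked fit.

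**Figure D2:**
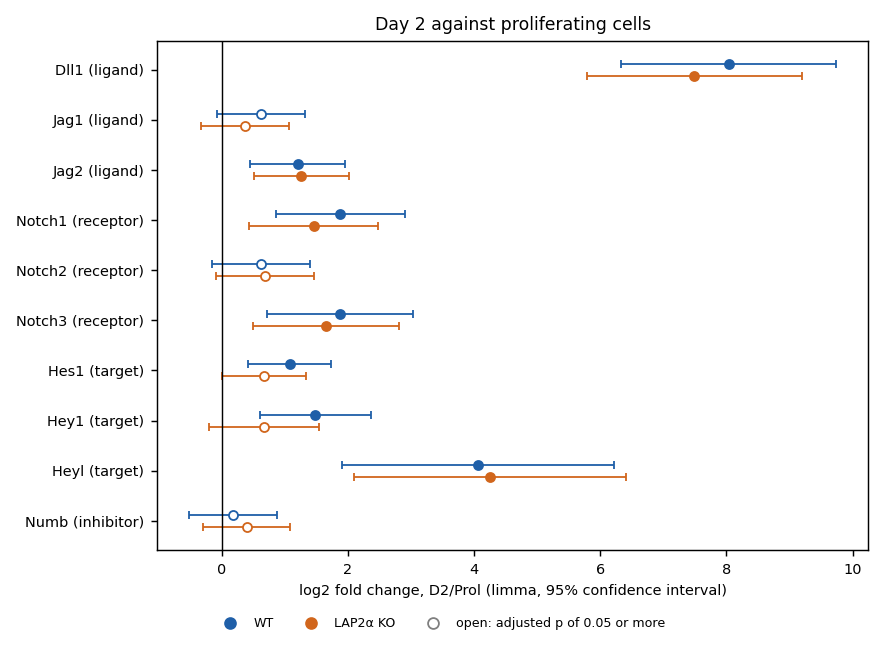
Fitted log2 fold change of each member on day 2 against proliferating cells (x axis) with its 95% confidence interval, in WT and LAP2α KO; filled points passed the adjusted test and open points did not. All 20 point estimates lie above 0, and Dll1 and Heyl lie farthest to the right.

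Among the targets, Hes1 (chr16:30064384-30067796, plus strand), the classical repressor induced by Notch, was at 9.52, 8.08 and 10.6 CPM in WT Prol and at 31.4, 16.1 and 15.1 CPM in WT D2. Hes1 in KO was at 11.0, 14.3 and 11.7 CPM in Prol and at 31.97, 15.8 and 14.7 CPM in D2. The D2 libraries of WT were well above its Prol libraries, while replicates 2 and 3 of KO D2 lay just above the highest KO Prol library. The rise was 2.11-fold in WT (log2 1.08 ± 0.31, adjusted p = 0.0151) and the KO difference of 0.67 ± 0.31 did not pass (adjusted p = 0.115). The WT call was lost without Prol replicate 2 (adjusted p = 0.0562) or D2 replicate 1 (0.0714), and the KO difference was 0.31 without KO D2 replicate 1.

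Hey1 (chr3:8663359-8667256, minus strand), a related repressor, was at 1.16, 0.652 and 1.03 CPM in WT Prol and at 2.87, 2.94 and 2.04 CPM in WT D2. In KO it was at 1.21, 0.613 and 1.31 CPM in Prol and at 2.24, 1.36 and 1.30 CPM in D2. The WT groups were separate, and in KO replicate 3 was about the same in both states. The rise was 2.80-fold in WT (log2 1.49 ± 0.41, adjusted p = 0.0120), lost without WT Prol replicate 2 (adjusted p = 0.0573), and the KO difference was 0.67 ± 0.41 (adjusted p = 0.243).

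Passing in WT and not in KO does not show that the genotypes differ for Hes1 or Hey1. The difference of the D2/Prol response between KO and WT was -0.41 (95% confidence interval -1.34 to 0.53, adjusted p = 1.00) for Hes1 and -0.82 (-2.06 to 0.42, adjusted p = 1.00) for Hey1. Over the members it ran from -0.82 to 0.22, and 0 of 10 passed, as did 0 of all 17672 genes (0%). At an unadjusted p under 0.05, which 0.945% of all genes reached, and with voom weights and an adjusted p, the count of members was also 0.

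Heyl (chr4:123233556-123249875, plus strand), the third of these repressors, was near the detection limit outside D2. It had 0, 3 and 0 expected counts in WT Prol and 0, 1 and 0 in KO Prol, against 7, 23 and 36 in WT D2 and 7, 20 and 28 in KO D2. In CPM, the D2 libraries were at 0.223, 0.642 and 1.03 in WT and 0.245, 0.445 and 0.746 in KO. All D2 libraries exceeded all Prol libraries, and replicate 1 was the lowest of the D2 libraries in each genotype, unlike for Jag1, Notch1, Notch2, Hes1 and Numb. The ratio of summed counts was 19.2 in WT (95% exact interval for counting error 6.29 to 95.5) and 45.6 in KO (7.85 to 1833). The fitted log2 fold changes were 4.07 ± 1.02 (adjusted p = 0.00632) and 4.25 ± 1.02 (adjusted p = 0.00443), and on the log2(CPM + 1) scale they were 0.60 and 0.51.

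Numb (chr12:83794034-83921934, minus strand), the inhibitor, did not pass the test. It was at 18.9, 14.2 and 15.1 CPM in WT Prol and at 29.8, 13.4 and 14.9 CPM in WT D2, and at 17.4, 15.2 and 15.6 CPM in KO Prol and 36.2, 15.7 and 16.6 CPM in KO D2. Replicates 2 and 3 of D2 were close to the Prol libraries, and replicate 1 was well above them. The log2 fold change was 0.18 in WT (95% confidence interval -0.51 to 0.87, adjusted p = 0.725) and 0.40 in KO (-0.29 to 1.09, adjusted p = 0.393). Without the WT D2 replicate 1 library the WT value was -0.18.

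The replicate 1 libraries thus stood above the others at D2 for several members. Replicate 1 was the highest of the 3 libraries for 6 of 10 members in WT D2 and for 6 of 10 in KO D2, where it was the highest for 45.1% and 40.7% of all genes tested. The pattern was not confined to D2. The count was 6 in WT Prol (34.7% of all genes), 2 in KO Prol (33.89%), 7 in WT D0 (39.36%) and 5 in KO D0 (37.35%). These counts are of few genes and were not tested against the shares. Between same-numbered libraries, the D2/Prol log2 difference of Numb was 0.65 for WT replicate 1, -0.09 for replicate 2 and -0.02 for replicate 3, and it was 1.06, 0.05 and 0.09 in KO. That of Hes1 was 1.72, 1.00 and 0.51 in WT and 1.54, 0.14 and 0.34 in KO. Without the replicate 1 libraries of all groups, a setting chosen after the data were seen, the 7 members called in WT and the 5 called in KO were the same genes. The Hes1 difference was then 0.76 in WT (adjusted p = 0.0215) and 0.24 in KO (adjusted p = 0.427).

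**Figure D3:**
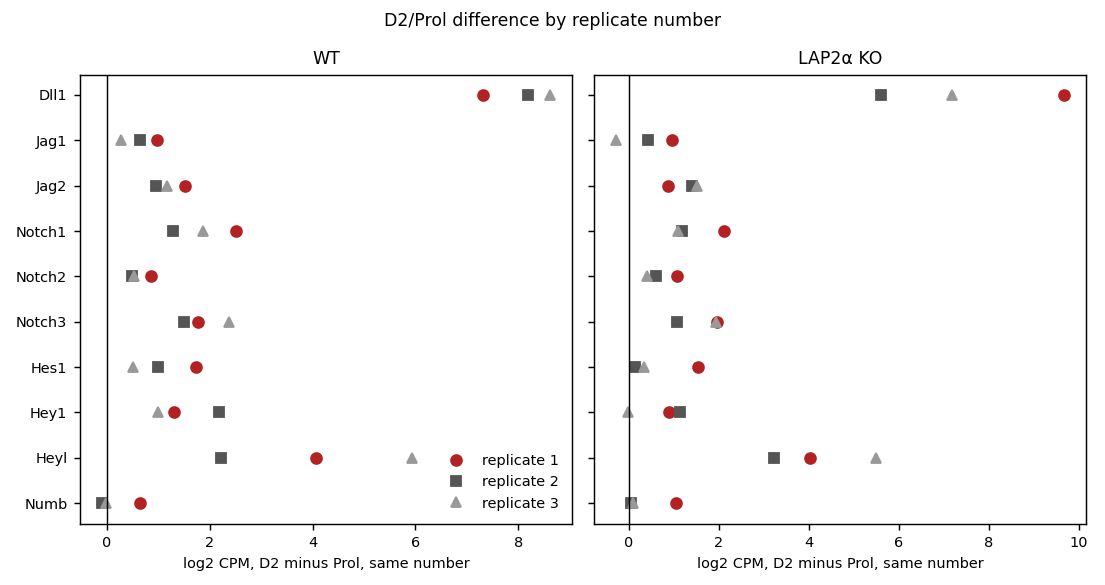
Difference in log2 CPM between the D2 and Prol libraries of the same replicate number (x axis) for each member, WT left and LAP2α KO right. Replicate 1 lies to the right of replicates 2 and 3 for Jag1, Notch1, Notch2, Hes1 and Numb in both genotypes; for Numb replicates 2 and 3 lie within 0.1 of 0.

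The step to D0, before serum was reduced, was examined as D0 against Prol. It brings both a higher density and a longer time in culture, which the design does not separate. Here 0 of 10 members passed in WT (limma, 0.00566% of all genes passed) and 0 in KO (0%). At an unadjusted p under 0.05, the count was 1 in WT, Dll1, where 2.17% of all genes were below it, and 0 in KO, where 1.12% were, and with voom weights and an adjusted p it was 0 in both. Dll1 was at 0.432, 0.155 and 0.254 CPM in WT D0, from 13, 4 and 6 expected counts, above the 3 WT Prol libraries, a separation that 5.92% of all genes showed in either direction. Its log2 difference was 1.85 ± 0.80 (unadjusted p = 0.0347, adjusted p = 1.00). In KO D0 it was at 0.128, 0.196 and 0.0807 CPM, within the range of KO Prol.

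Notch1 and Notch3 were high at D0 in the replicate 1 libraries. Notch3 was at 133, 22.8 and 19.7 CPM in WT D0 and at 75.9, 31.97 and 24.6 CPM in KO D0, and Notch1 at 32.1, 7.11 and 9.36 CPM in WT D0 and 20.2, 9.98 and 8.601 CPM in KO D0. The WT D0 replicate 1 library had as much Notch3 as the D2 libraries, while its replicates 2 and 3 were in the range of Prol. In WT D0 replicate 1, Des was at 13.3 CPM, against 2.84 and 2.52 CPM in the other WT D0 libraries, and Myog at 4.53 CPM, against 0.775 and 1.23 CPM. Mean Myog was 393 CPM in WT D2. These are 2 of the 7 listed muscle markers. By whole lists, the highest WT D0 sum was 64.85 CPM for muscle markers (median 44.04) and 132.1 CPM for fibroblast and fibro-adipogenic markers (median 36.58). For smooth muscle and pericyte markers, Notch3 included, it was 704.4 CPM (median 417.8). In KO D0, where Notch3 and Notch1 were also highest in replicate 1, the muscle marker sums were 38.32 to 41.7 CPM. The highest KO D0 sum was 119.3 CPM for fibroblast and fibro-adipogenic markers (median 58.28). For smooth muscle and pericyte markers it was 579.7 CPM (median 357.7). What sets the replicate 1 libraries apart was not tested. The fitted D0/Prol difference of Notch3 was 0.66 in each genotype and that of Notch1 0.60 in WT and 0.57 in KO. Without WT D0 replicate 1 the WT values were -0.23 for Notch3 and -0.06 for Notch1.

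The remaining members overlapped between Prol and D0 in both genotypes. Notch2 was at 195, 77.9 and 146 CPM in WT D0 and at 176, 81.6 and 162 CPM in KO D0. Jag1 was at 37.9, 18.6 and 29.4 CPM in WT D0 and at 32.2, 24.9 and 34.6 CPM in KO D0, and Numb at 17.4, 11.3 and 15.0 CPM and at 17.2, 11.99 and 15.2 CPM. In all 3 genes and both genotypes, replicate 2 was the lowest D0 library. Over the 10 members, the fitted D0/Prol differences lay between -0.15 and 1.85 in WT, and those of KO between -0.13 and 1.27.

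Against D0, 5 members were higher at D2 in WT, where 14.7% of all genes were, and 3 in KO, where 15.3% were, and 0 were lower. Without Dll1 and Heyl, these were 3 of 8 in WT and 1 of 8 in KO. In either direction 26% of all genes passed in WT and 28.3% in KO. The comparison shares its D2 libraries with D2 against Prol. Dll1 rose by 6.19 ± 0.80 on the log2 scale in WT (adjusted p = 3.71e-05) and 6.77 ± 0.80 in KO (adjusted p = 1.61e-05), with ratios of summed counts of 69.9 (46.5 to 110.5) and 115 (67.3 to 217). Heyl rose by 3.61 ± 1.02 in WT (adjusted p = 0.0156) and 2.98 ± 1.02 in KO (adjusted p = 0.0382), with 1, 0 and 2 expected counts in WT D0 and 5, 2 and 0 in KO D0. The Heyl call was lost in WT without D2 replicate 3 or D0 replicate 2 (adjusted p = 0.0694 and 0.0717), and in KO without replicate 2 or 3 of either state (0.0594 to 0.198).

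Jag2 was at 1.01, 0.947 and 0.958 CPM in WT D0 and at 0.414, 0.980 and 0.758 CPM in KO D0, and it rose to D2 by 1.23 ± 0.35 in WT (adjusted p = 0.0178) and 1.07 ± 0.35 in KO (adjusted p = 0.0328). The Jag2 call was lost in WT without D0 replicate 3 or D2 replicate 1 (0.0543 to 0.0787) and in KO without any library but D0 replicate 2 (0.0553 to 0.145). Hes1, at 8.54, 10.1 and 13.2 CPM in WT D0, rose by 0.92 ± 0.31 in WT (adjusted p = 0.0399), a call lost without D0 replicate 1, D0 replicate 2 or D2 replicate 1 (0.0906 to 0.173). Hey1, at 1.33, 0.809 and 1.43 CPM in WT D0, rose by 1.16 ± 0.41 in WT (adjusted p = 0.0487), a call lost without any of the 6 libraries (0.0569 to 0.175). Hey1 in KO D0 was at 0.728, 0.850 and 1.66 CPM. In KO the differences were 0.35 ± 0.31 for Hes1 and 0.65 ± 0.41 for Hey1 (adjusted p = 0.436 and 0.270).

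In the fit without the block, the receptors did not pass between D0 and D2. The log2 difference was 1.29 ± 0.48 for Notch1 (adjusted p = 0.0607) and 1.22 ± 0.54 for Notch3 (adjusted p = 0.113) in WT, and 0.89 ± 0.48 and 1.00 ± 0.54 in KO (adjusted p = 0.190 and 0.191). Without WT D0 replicate 1, they were 1.95 for Notch1 (adjusted p = 0.00216) and 2.11 for Notch3 (adjusted p = 0.00053). Without the replicate 1 libraries of all groups, 5 members were again higher in WT, but Notch1 and Notch3 took the place of Hes1 and Hey1 beside Dll1, Jag2 and Heyl. In KO, where the replicate numbers paired the libraries, the blocked fit called 6 members higher at D2 than at D0, adding Notch1 (log2 0.89, adjusted p = 0.0318), Notch2 (0.70, adjusted p = 0.00276) and Numb (0.53, adjusted p = 0.0389) to Dll1, Jag2 and Heyl. The share of all genes that the blocked fit called is not given here, so the added calls do not show a trait of the members.

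The question of how loss of LAP2α bears on the members was examined as KO against WT within each state. Of the 10 members, 0 passed in Prol (0.00566% of all genes did), 0 at D0 (0%) and 0 at D2 (0%). At an unadjusted p under 0.05 the counts were also 0, where 1.11%, 1.47% and 1.96% of all genes were below it, and with voom weights and an adjusted p they were 0 in all 3 states. Fitted log2 differences over the members ran from -0.73 to 0.39 in Prol, from -1.02 to 0.55 at D0 and from -0.71 to 0.22 at D2. At D2, 8 of the 10 were below 0, with a median of -0.25 beside -0.01 over all genes tested. The Tmpo gene, which encodes LAP2α together with other LAP2 isoforms, was at 310, 275 and 315 CPM in WT Prol and 250.3, 228 and 260.4 CPM in KO Prol, and gene-level values do not separate the LAP2α isoform.

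Jag2 was the member with the lowest KO level relative to WT in Prol. Its KO libraries lay below all WT libraries in Prol and at D2, and overlapped at D0. The log2 difference was -0.73 in Prol (95% confidence interval -1.48 to 0.02, unadjusted p = 0.0564), -0.52 at D0 (-1.28 to 0.23) and -0.68 at D2 (-1.43 to 0.08, unadjusted p = 0.0747), and the adjusted p was 1.00 in each state. The D2 value was -0.38 without WT D2 replicate 1. These values rest on 14 to 114 expected counts per library.

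Hes1 lay on the other side before differentiation. Its KO libraries were above all WT libraries in Prol and at D0, where they were at 13.5, 14.4 and 18.2 CPM, and overlapped with WT at D2. The log2 difference was 0.39 in Prol (95% confidence interval -0.27 to 1.05), 0.55 at D0 (-0.11 to 1.21) and -0.01 at D2 (-0.68 to 0.65), with an adjusted p of 1.00 in each state. Groups that did not overlap were thus found for 2 members in Prol, 1 at D0 and 1 at D2, where 4.41%, 3.02% and 6.17% of all genes did not overlap in either direction.

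At D2, Hey1 was 0.71 lower in KO on the log2 scale by the fit (-0.71, 95% confidence interval -1.59 to 0.17), Notch1 was at -0.50 (-1.53 to 0.52) and Dll1 at -0.44 (-2.14 to 1.26), and none of these passed. The KO library of each replicate number was below its WT counterpart in 3 of 3 pairs for Hey1, Notch1, Notch3 and Jag2 and in 2 of 3 for Dll1, and it was above it in 3 of 3 pairs for Notch2 and Numb. The share of all genes with 3 of 3 pairs in one direction was not counted, so these pairs do not show a genotype difference. The summed level of the muscle markers was also lower in the KO D2 libraries than in the WT D2 libraries, at 1112 to 1307 against 1792 to 3492 CPM. Myog, the differentiation factor myogenin, had a log2 difference of -0.96 (adjusted p = 1.00). Whether the members' values follow from the extent of differentiation was not tested.

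**Figure D4:**
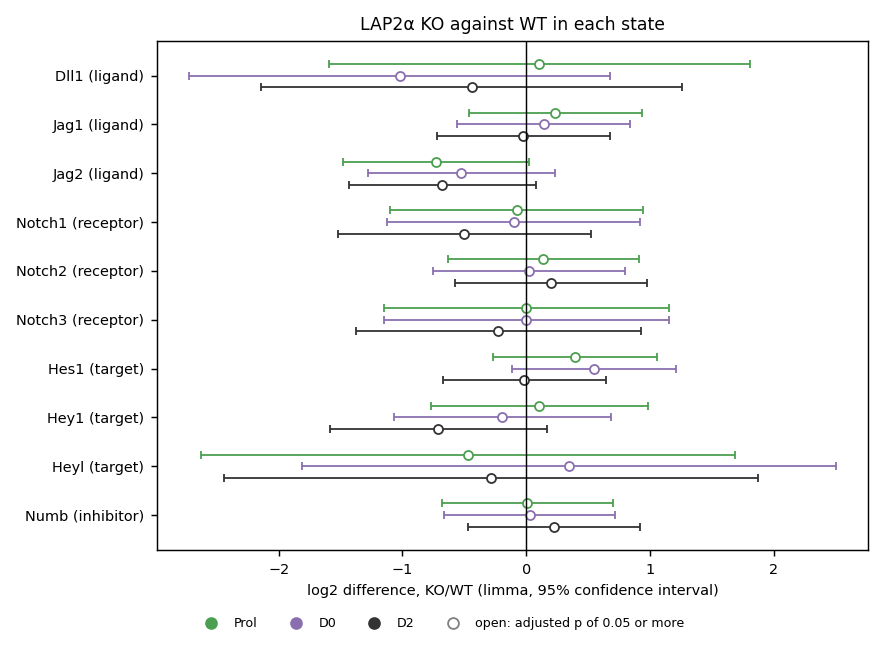
Fitted log2 difference of each member between LAP2α KO and WT (x axis) with its 95% confidence interval in Prol, D0 and D2; all points are open because none passed the adjusted test. Every interval includes 0, and those of Dll1 and Heyl are the widest.

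The genes whose pattern was most like that of Dll1, the member with the largest rise, were found by the correlation of log2 CPM over the 18 libraries among 13290 other genes with a mean of at least 1 CPM. They were Tnnt1, slow skeletal troponin T (Pearson r = 0.983), Myog (r = 0.981) and Cacng1, a subunit of the muscle calcium channel (r = 0.978). Mean CPM in WT went from 0.458 in Prol to 96.3 at D2 for Tnnt1, from 0.780 to 393 for Myog and from 0.214 to 30.1 for Cacng1. The 18 libraries form 6 groups, so the correlations mostly describe the step to D2, and many genes with such a step have high values. No member had a fitted fall in WT D2/Prol, so the same was not done for a falling gene.

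The other genes of the pathway were taken from 8 lists holding 64 genes, of which 60 were listed and 59 tested. The lists were drawn up with earlier results of these data known. In WT D2/Prol, 13 rose and 5 fell, where 16.6% of all genes rose and 30.7% changed. In KO 16 rose and 5 fell, where 17.1% of all genes rose and 32.3% changed. With 18 of the 59 called in WT and 21 in KO, the counts in either direction were near those shares. Without Mfng and Dner, which entered the test only through D2, 12 of 57 rose in WT and 14 in KO. Over the 59, the median log2 fold change was 0.15 in WT and 0.17 in KO. In D0/Prol and KO/WT, 0 of the 59 passed in any state by limma, and 0 did so at an unadjusted p under 0.05.

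Among genes that act on ligands and receptors, some rose and some fell. The counts by list are of few genes and were not tested against the shares over all genes. Of the 4 ubiquitin ligases that act on ligands, 2 rose and 1 fell in each genotype. Neurl1a, a Neuralized-type ligase, was at 2.56, 1.36 and 0.760 CPM in WT Prol and at 33.5, 20.6 and 23.1 CPM in WT D2, an 18.2-fold rise (log2 4.19 ± 0.51, adjusted p = 1.63e-05), and the KO value was 3.30 ± 0.51 (adjusted p = 0.000151). Its D2 libraries were all above its Prol libraries in both genotypes. Mib2 rose by 1.10 in WT and 1.21 in KO on the log2 scale, and Neurl1b fell by 1.37 in WT and 1.58 in KO.

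Of the 10 genes of receptor turnover, 3 rose and 0 fell in each genotype. Dtx4, a Deltex ubiquitin ligase, was at 11.2, 15.3 and 15.5 CPM in WT Prol and at 59.7, 54.0 and 55.2 CPM in WT D2, a 4.07-fold rise (log2 2.02 ± 0.19, adjusted p = 1.41e-06), and the KO value was 2.49 ± 0.19 (adjusted p = 5.30e-07). Dtx3 rose by 1.26 in WT and 1.49 in KO. Numbl, the relative of Numb, rose from 42.1, 35.5 and 37.6 CPM in WT Prol to 98.8, 68.8 and 72.1 CPM in WT D2 (log2 1.04 ± 0.21, adjusted p = 0.00121) and by 1.06 ± 0.21 in KO (adjusted p = 0.00102), where Numb did not pass.

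Of the 10 genes of receptor cleavage, 2 rose in WT and 3 in KO. Aph1b and Psenen, subunits of gamma-secretase, rose by 1.27 and 0.50 in WT and by 1.40 and 0.59 in KO on the log2 scale, and Aph1c had a difference of 1.24 in WT (adjusted p = 0.0547) and rose by 1.49 in KO. Aph1b and Aph1c are near-identical copies, so the split of reads between them is uncertain. Of 5 genes of glycosylation, 1 rose in each genotype, Mfng, a Fringe glycosyltransferase that entered the test only through WT D2. The more abundant Fringe genes Lfng and Rfng were not called. Mean Lfng went from 23.85 CPM in Prol to 17.64 at D2 in WT and from 20.75 to 11.96 in KO. Mean Rfng went from 24.55 to 30.54 CPM in WT and from 26.08 to 29.98 in KO. Mfng had 0 expected counts in all WT Prol libraries and 8, 6 and 12 in WT D2. The lower limit for the ratio of its summed counts was 5.72 (95% exact interval for counting error). In KO, Mfng had 1, 0 and 1 expected counts in Prol and 6, 9 and 2 in D2. Of 6 other receptors and ligands tested, the non-canonical ligand gene Dlk2 fell by 1.69 in WT and 1.96 in KO, and Dner, at 4, 2 and 2 expected counts in WT Prol and 33, 10 and 7 in WT D2, passed in KO (log2 3.40, adjusted p = 0.00202) and not in WT (1.97, adjusted p = 0.0513).

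Among nuclear genes, Hes6, a Hes-family gene known to oppose Hes1 and to promote myogenic differentiation, was at 7.70, 9.47 and 6.70 CPM in WT Prol and at 55.9, 62.3 and 52.9 CPM in WT D2, a 7.22-fold rise (log2 2.85 ± 0.25, adjusted p = 9.15e-07), and the KO value was 2.64 ± 0.25 (adjusted p = 2.01e-06). It was the only one of the 3 tested genes of its list to pass, in both genotypes. Rbpj, the DNA-binding partner of the receptors' intracellular domain, had differences of -0.37 in WT and -0.30 in KO (adjusted p = 0.520 and 0.614). In its list of 9, 2 rose and 1 fell in each genotype. The coactivator Maml3 rose by 1.37 in WT and 1.33 in KO, and the acetyltransferase Kat2b by 0.69 and 0.93, while the acetyltransferase Kat2a fell by 1.12 in WT and 1.29 in KO. Of 12 corepressor genes, 2 rose and 2 fell in WT and 3 rose and 2 fell in KO. Tle2, of the Groucho family, rose by 2.71 in WT and 2.77 in KO and Cir1 by 0.51 and 0.55, Aes had a difference of 0.62 in WT (adjusted p = 0.0660) and rose by 0.74 in KO, and Ctbp2 fell by 1.03 in WT and 1.10 in KO and Hdac1 by 0.42 and 0.50.

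**Figure D5:**
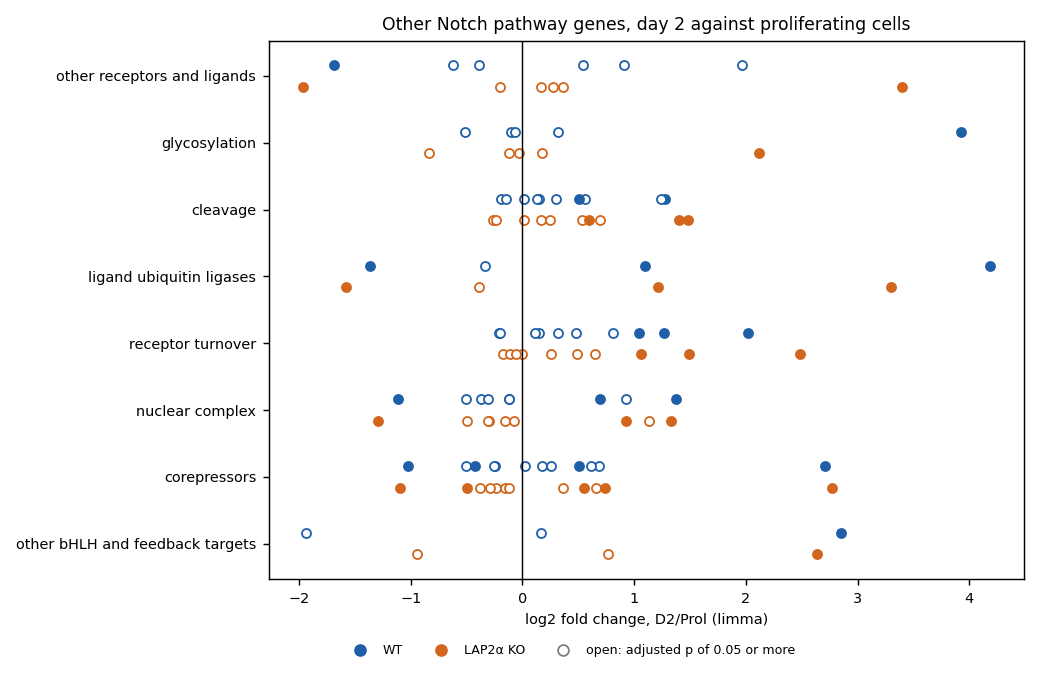
Fitted log2 fold change on day 2 against proliferating cells (x axis) of 59 other pathway genes, by list on the y axis, with WT above and LAP2α KO below in each row; filled points passed the adjusted test. The points farthest right in WT are Neurl1a among the ligand ubiquitin ligases and Mfng in glycosylation, and the points farthest left among those that passed are Dlk2 in both genotypes.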

How the data were processed

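RNA of 18 mouse myoblast libraries was sequenced with a stranded protocol. According to the study's methods, the authors trimmed reads with cutadapt, mapped them to the GRCm38 transcriptome with NextGenMap, estimated counts with RSEM, removed genes with low counts and scaled library totals by TMM. The values deposited by the authors are CPM of the scaled total with 0.5 counts added, so expected counts were recovered from them (38.9% to 51.2% of those under 20 were within 0.02 of a whole number) and no count test was used. Because reads were counted by strand, the antisense genes at Dll1 and Notch1 were counted apart.

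A gene was tested where some group had over 5 expected counts in each of its 3 libraries (17672 of 19153 genes). Log2 CPM was fitted with limma 3.58.1 (R 4.3.3) as 1 factor of 6 groups with a variance trend, with two-sided tests and Benjamini-Hochberg adjustment over all genes, called at an adjusted p under 0.05. The lane that the study blocked on is not used here. Intervals for ratios of counts cover counting error only, and reads without molecular identifiers are not independent molecules.

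Deviations from the group means of same-numbered libraries correlated at above 0.1 in 40 of 45 pairs (-0.0358 to 0.645), and in all 3 pairs for KO D2/Prol, KO D2/D0, D0/Prol in both genotypes and KO/WT in all 3 states, where the replicate number was taken to pair the libraries. For WT D2/Prol and WT D2/D0 it was not. Values are from the fit without the block unless stated. For the paired comparisons, the SEs, intervals, p-values and fits without single libraries therefore leave the pairing out.

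The members and lists were chosen with earlier results of these data known. All members are named, and of the other pathway genes those called in D2/Prol with the largest change in WT, up to 3 in each direction per list. Alternatives were the replicate block, voom weights, library totals alone, median-of-ratios scaling, no filter, an added minimum fold, log2(CPM + 1), only the groups compared, an unadjusted p with a minimum fold of 1.5 and 10 CPM, the same with the log2 fold change of 1.5 that the study's methods state (added after the data were seen), and leaving out libraries. Positions are from GENCODE M21 and promoters from RefSeq. Figures were drawn with matplotlib 3.10.9 (Python 3.11.15).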

Additional observations from a re-analysis of the deposited data

How the results depend on the processing

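Of 792 values of single members under alternatives, 709 kept their direction and their side of the threshold, 48 lost the call, 24 gained it and 11 changed sign. Counts of members under alternatives are given without the share of all genes called by the same setting. They therefore show how the calls depend on the setting and not a trait of the set. For counts of members called in WT D2/Prol, an unadjusted p under 0.05 with over 1.5-fold change and 10 CPM gave 4, the same with a log2 fold change over 1.5, chosen after the data were seen, gave 3, and leaving out 1 library gave 5 to 7. In KO D2/Prol, the log2 rule gave 2 and leaving out 1 library gave 2 to 4. In WT D2/D0 the replicate block gave 8, only the groups compared gave 2, the log2 rule gave 1, and leaving out 1 library gave 2 to 5. In KO D2/D0 the replicate block gave 6, voom weights with a random replicate block gave 5, only the groups compared gave 1, the fold rule and the log2 rule each gave 1, and leaving out 1 library gave 1 to 2. The cause was not tested, beyond the fewer libraries in the fits of only the groups compared. In WT D2/Prol the replicate block called 9, adding Notch2 and Jag1, although the numbers were not taken to pair those libraries. The counts of 0 in D0/Prol, KO/WT and the difference of responses stayed 0 under every alternative run for them, the replicate block and leaving out each library included.

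Some small differences changed sign. Without the replicate 1 libraries of all groups, the log2 difference was -0.019 for Notch1 and -0.18 for Notch3 in WT D0/Prol, -0.052 for Numb in WT D2/Prol and -0.088 for Hes1 in KO D2/D0. Without 1 library in turn, it ran from -0.062 to 1.02 for Notch1 and from -0.23 to 1.15 for Notch3 in WT D0/Prol, from -0.18 to 0.40 for Numb in WT D2/Prol, from -0.002 to 0.56 for Hes1 in KO D2/D0 and from -0.37 to 0.32 for Hes1 in KO/WT D2. The cause was not tested. With library totals alone the median of all genes in D2/Prol moved to 0.15 in WT and 0.16 in KO, and the members called were 8 and 6, again without the share over all genes. Depth limited Dll1 outside D2 and Heyl throughout, which rest on 0 to 36 expected counts per library.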
